A study of Mus musculus with 4 samples.

Results

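The 34 genes described here encode integrin chains, the vascular selectins and their main ligand, the cell adhesion molecules of the ICAM and VCAM type, and the receptors of sphingosine 1-phosphate. They were taken by gene symbol from the deposited expression tables, where each of the 34 matched a single row among 55401 gene models. Group 2 innate lymphoid cells (ILC2s), lymphocytes of mucosal tissue that carry no antigen receptor, were purified from the lungs of C57BL/6 mice. The cells of 1 group received IL-33, an alarm cytokine of damaged epithelium, for 6 h, and those of the other received IL-33 plus angiotensin II (Ang II), a peptide hormone of the renin-angiotensin system, for the same time. Both groups therefore carry IL-33, and unstimulated cells are not analysed here. Each sample held 500 cells, there are 2 libraries in each group, and the labels do not say whether these came from separate mice or cultures.

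Lymphocytes leave the blood by rolling on selectins and then arresting through integrins, each a pair of an alpha and a beta chain that binds adhesion molecules or extracellular matrix once it is activated from inside the cell. Inside a tissue the same integrins hold cells in place, while sphingosine 1-phosphate, which is more concentrated in blood and lymph than in tissue, draws out cells that carry its receptor S1PR1. ILC2s are known as cells that mostly stay in the lung, and the surface protein CD69 favours this by binding S1PR1 and taking it into the cell.

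Values are FPKM, that is fragments scaled to transcript length and library size, so levels of different genes can be compared within a library. Each library sums to 394807.8 to 431013.8 FPKM, and the fragment number behind each value is unknown. The IL-33 libraries were near copies of each other, with a Pearson r of 0.994 across 9215 genes. The Ang II libraries were not, with r = 0.568. Between libraries of different groups r was 0.555 to 0.567. By this measure the Ang II libraries were hardly closer to each other than to the IL-33 libraries. Genes are not independent replicates. The spread within the IL-33 pair was 0.85 to 1.13 times what counting alone would give, depending on the transcript length assumed. Within the Ang II pair it was 12.77 to 13.3 times. The fragment number used for both pairs was estimated from low genes of that same IL-33 pair. The IL-33 ratio is therefore no independent check, and the Ang II ratio does not use a depth of its own. The IL-33 libraries were therefore counted as 1 sample. Of 3293 genes at 5 to 30 FPKM under IL-33 alone, 43.2% stood below 1 FPKM in Ang II replicate 1, 29.8% in Ang II replicate 2 and 21.3% in both. Of genes at that level in Ang II replicate 2, 44.3% stood below 1 FPKM in Ang II replicate 1, and of those in replicate 1 27.1% did so in replicate 2, so genes of this level stood below 1 FPKM within the group too.

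The 12 ILC2 markers summed to 1066.1 and 1070.9 FPKM under IL-33 alone and to 1259 and 1660.4 FPKM under Ang II, and of 10 tested 4 (Areg, Gata3, Il2ra and Ptprc) lay above and 1 (Il13) below the IL-33 range in both Ang II libraries, beside 24.4% and 33.5% of all genes tested. Icos, a costimulatory receptor gene, stood at 357.43 and 347.92 FPKM under IL-33 alone and at 264.19 and 382.63 FPKM under Ang II, and Klrg1 at 290.63 and 295.98 against 283.11 and 449.21 FPKM. Areg, the gene of the growth factor amphiregulin, stood at 7.38 and 7.51 against 216.92 and 343.88 FPKM, and Il13, a signature cytokine gene of ILC2s, at 70.05 and 73.66 against 16.34 and 0.53 FPKM; both are named after their values were seen. Il5 was listed at 0 in all 4 libraries and Thy1, named after its values were seen, did not exceed 0.09 FPKM. Genes listed as markers of other cells were detected as well. The 8 T cell markers summed to 147.8 and 152.7 FPKM under IL-33 alone and to 36.6 and 6.9 FPKM under Ang II, and the 12 macrophage and monocyte markers to 2140.7 and 2105.8 FPKM against 2034.5 and 962.2 FPKM. The sums were 208.6 and 201.2 against 61.8 and 38.8 FPKM for 5 neutrophil markers, and 353.8 and 344.5 against 80.1 and 188.7 FPKM for 6 epithelial markers. For 7 NK and ILC1 markers they were 30.1 and 31 against 0.1 and 13.3 FPKM. Nearly all of this was Nkg7 under IL-33 alone (29.88 and 30.91 FPKM) and Gzma in Ang II replicate 2 (13.33 FPKM). Ncr1, Klrb1c and Tbx21, and the epithelial Krt8, Krt18 and Cldn18, were listed at 0 in all 4 libraries. The neutrophil markers Ly6g and Csf3r, named after their values were seen, did not exceed 0.43 FPKM. S100a8, the most abundant of that list, stood at 163.08 and 157 against 34.19 and 18.91 FPKM, and S100a9 at 42.03 and 40.51 against 24.22 and 16.87 FPKM. Scgb1a1, the most abundant epithelial marker, stood at 256.48 and 243.77 against 76.89 and 132.53 FPKM, and Sftpc at 80.52 and 81.49 against 3.17 and 43.19 FPKM. Markers of a list thus differed widely, and the sums alone do not show whether these cell types were present. In these bulk samples fewer cells of a type and less RNA per cell cannot be told apart.

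Genes averaging 1 FPKM or more were tested with limma on log2(FPKM + 1), 15 of the 34 among them. By limma's two-sided test with Benjamini-Hochberg adjustment over all 9215 genes tested, 0 of the 15 and 0 of the others passed at 0.05, and 0.174 was the lowest adjusted p. At an unadjusted p under 0.05, 1 of the 15 was higher with Ang II, where the share over all genes is 2.79%, and 5 were lower, where it is 10.8%. Both Ang II values lay above both IL-33 values for 4 of the 15 (24.4% of all genes tested) and below them for 8 (33.5% of all genes tested). Several of the 15 passed the minimum only through the group in which they were high, so these counts describe the set and are no support for a shift. Some genes of the pathway and marker lists did so too, and the same limit holds for the counts over those lists. With the IL-33 libraries counted as 2 samples instead, 7 of the 15 passed the adjusted threshold: Icam1 higher, where 4.96% of all genes tested passed, and Itga5, Itgal, Itgb1, S1pr1, S1pr2 and S1pr4 lower, where 11.8% did. With the replicate number added as a block 0 passed. The median log2 change of the 15 was -1.08, beside 0.00 over all genes tested.

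**Figure D1:**
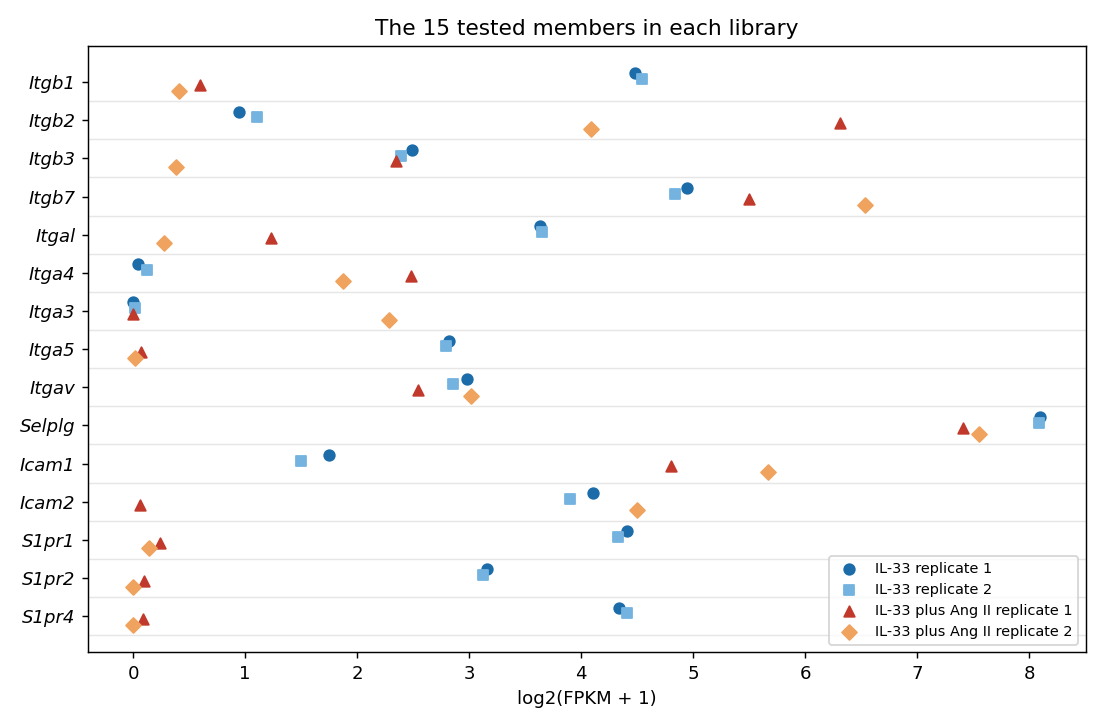
Level of the 15 tested genes in each library, as log2(FPKM + 1) on the horizontal axis, with a point per library. The IL-33 points of a gene lie close together; S1pr1, S1pr2, S1pr4, Itgb1 and Itga5 lie near 0 in both Ang II libraries, while Itgb2, Itgb7, Icam1 and Itga4 lie to the right of their IL-33 points.

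Of the 5 sphingosine 1-phosphate receptor genes 3 were tested, and each of these lay lower in both Ang II libraries. S1pr1, which encodes the receptor that guides lymphocytes out of tissue (chromosome 3, 115710433 to 115715072, minus strand, mm10), stood at 20.19 and 19.04 FPKM under IL-33 alone and at 0.18 and 0.1 FPKM under Ang II. S1pr4, which encodes a receptor found mainly on blood and lymphoid cells (chromosome 10, 81497747 to 81500132, minus strand), stood at 19.26 and 20.22 FPKM against 0.06 FPKM and a listed 0. S1pr2, whose product signals through G12 and G13 proteins and tends to restrain migration (chromosome 9, 20962361 to 20976781, minus strand), stood at 7.94 and 7.71 FPKM against 0.07 FPKM and a listed 0. For each of the 3 both Ang II libraries were far below both IL-33 libraries and close to each other. The log2 changes were -4.18 for S1pr1 (SE 0.49, adjusted p = 0.184), -4.33 for S1pr4 (SE 0.45, adjusted p = 0.174) and -3.09 for S1pr2 (SE 0.29, adjusted p = 0.174), by limma over all genes. Their small standard errors come from Ang II values that are all at the bottom of the scale.

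The receptors S1pr3 and S1pr5, the latter known from natural killer cells, did not exceed 0.05 FPKM in any library. Summed over the 5 receptors, the level was 47.4 and 47 FPKM under IL-33 alone and 0.31 and 0.13 FPKM under Ang II. With IL-33, S1pr1 and S1pr4 made up nearly equal parts of that sum, 42.6% and 40.6% in replicate 1 and 40.5% and 43% in replicate 2. T cells also carry S1pr1 and S1pr4, and the T cell markers lay lower under Ang II too: Cd3d stood at 61.32 and 65.19 FPKM under IL-33 alone and at 23.77 FPKM and a listed 0 under Ang II, and Cd3g at 33.24 and 31.65 against 12.59 and 5.79 FPKM. Of 7 tested T cell markers 7 were lower in both Ang II libraries, beside 33.5% of all genes tested, and none of the 8 was listed at 0 throughout. Cd247, Cd3e, Cd4, Cd5 and Cd28, named after their values were seen, passed the minimum only through IL-33. The count of lower T cell markers is therefore no support for a shift. The part of these cells in the receptor values was not tested.

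Other genes of sphingosine phosphate metabolism and egress lay on both sides of the IL-33 values. Of 16 genes in that list 9 were tested. Of these 3 lay above and 1 below the IL-33 range in both Ang II libraries (24.4% and 33.5% of all genes tested). None passed the adjusted threshold, and the median log2 change of the 9 was 0.37. Sphk2, counted above and named after its values were seen, passed the minimum only through Ang II replicate 2. Cd69, the antagonist of surface S1PR1, stood at 18.36 and 16.87 FPKM under IL-33 alone and at 162.85 and 128.49 FPKM under Ang II (log2 change 2.97, SE 0.33, adjusted p = 0.176 by limma). Thus Cd69 lay higher in the libraries where S1pr1 lay lower, and neither difference passed over all genes. Gna13, which encodes the G13 alpha subunit, stood at 41.36 and 41.92 against 87.22 and 72.54 FPKM. Gnai2, which encodes the inhibitory G protein subunit through which S1PR1 signals, stood at 80.67 and 97.48 against 75.57 and 34.91 FPKM. Both G protein genes thus stood well above the receptors in every library. Sgpl1, the gene of the lyase that degrades sphingosine 1-phosphate, stood at 10.65 and 12.13 against 18.76 and 6.34 FPKM, with the IL-33 values between those of the Ang II libraries. Klf2, a transcription factor gene known to drive S1pr1 and named here after its values were seen, stood at 7.25 and 6.47 FPKM against 9.15 FPKM and a listed 0. Its Ang II libraries thus lay on either side of the IL-33 values, and its part in the S1pr1 values was not tested.

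S1pr2 and Icam1 lie 39.2 kb apart on chromosome 9, where genes between them were not examined, and the pair went opposite ways. The sequences before their starts are shown because of that contrast, with S1pr4 as another receptor gene that lay lower in both Ang II libraries; each is the 250 bases upstream of the RefSeq start (GRCm38.p6, the assembly of mm10), 5′ to 3′ along the gene. Capitals mark matches, on either strand, to TGANTCA (AP-1), TTCNNNGAA (STAT), CACCC (bound by KLF and Sp proteins) and GGGRNNYYCC (NF-kB consensus). N is any base, R is A or G, and Y is C or T.
Icam1, chr9:21015690-21015939, plus strand: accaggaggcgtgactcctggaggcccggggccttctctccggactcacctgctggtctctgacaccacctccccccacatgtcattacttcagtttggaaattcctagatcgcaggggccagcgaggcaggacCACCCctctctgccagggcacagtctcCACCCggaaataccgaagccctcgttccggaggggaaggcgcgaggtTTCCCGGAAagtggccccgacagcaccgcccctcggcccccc
S1pr2, chr9:20976794-20977043, minus strand: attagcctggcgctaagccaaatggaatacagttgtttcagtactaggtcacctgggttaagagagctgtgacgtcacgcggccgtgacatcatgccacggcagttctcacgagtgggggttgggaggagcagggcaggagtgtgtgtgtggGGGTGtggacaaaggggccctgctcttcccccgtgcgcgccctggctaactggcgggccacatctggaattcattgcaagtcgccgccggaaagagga
S1pr4, chr10:81500138-81500387, minus strand: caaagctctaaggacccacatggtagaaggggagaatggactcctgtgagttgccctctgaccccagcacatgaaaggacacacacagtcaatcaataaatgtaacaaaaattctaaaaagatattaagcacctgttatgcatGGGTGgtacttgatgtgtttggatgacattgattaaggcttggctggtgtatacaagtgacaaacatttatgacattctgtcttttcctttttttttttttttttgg

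The Icam1 window held 3 matches, none overlapping another: CACCC from 116 to 112 and from 89 to 85 bases before the start, and the STAT motif from 42 to 34. Of 32841 promoter windows of the same length 7.02% held the STAT motif, and CACCC was in 52%. The windows of S1pr2 and S1pr4 each held 1 CACCC match and no other of these motifs. Promoters were found for 22 of the 34 genes, in 24 windows. Among them the STAT motif occurred in Icam1 and Sele, the AP-1 motif in Itgax, Sele and Selp, CACCC in 17 windows and the NF-kB consensus in 0. Only exact matches were counted. The Icam1 window holds tggaaattcc, which departs from the NF-kB consensus only at its first base, so the 0 does not mean that NF-kB sites are absent. Over all windows the NF-kB consensus is in 7.25% and the AP-1 motif in 6.75%. These are matches of letters and not measured binding sites.

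Among adhesion molecules, Icam1 was the gene with the higher values in Ang II. Icam1 encodes the ligand of the beta 2 integrins and is a known target of NF-kB (chromosome 9, 21015985 to 21028817, plus strand). It stood at 2.36 and 1.82 FPKM under IL-33 alone and at 26.89 and 49.7 FPKM under Ang II (log2 change 3.61, SE 0.71, unadjusted p = 0.0441, adjusted p = 0.347 by limma). Both Ang II values exceeded both IL-33 values. A gene on the opposite strand that overlaps its exons, Gm47079, was listed at 0 in all 4 libraries.

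Icam2, which encodes a second ligand of the same integrins, on resting lymphocytes and endothelium (chromosome 11, 106377656 to 106388075, minus strand), stood at 16.2 and 13.89 FPKM under IL-33 alone. In Ang II it was at 0.04 FPKM in replicate 1 and at 21.65 FPKM in replicate 2, so the groups overlapped and the Ang II libraries differed more than the groups (log2 change -1.73, SE 2.92, adjusted p = 0.815 by limma). Without Ang II replicate 1 the log2 change was 0.50, that is higher with Ang II. Vcam1, the ligand of integrin chain pairs with Itga4, did not exceed 0.07 FPKM. The 8 endothelial markers summed to 29.6 and 29.4 FPKM under IL-33 alone and to 2.9 and 0.7 FPKM under Ang II. Of these Cdh5, Kdr, Eng and Tie1 were listed at 0 in all 4 libraries, and Cldn5 stood at 29.56 and 29.25 FPKM under IL-33 alone and at 0.05 FPKM and a listed 0 under Ang II. Their part in the Icam2 values was not tested.

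The beta chains, which decide what family an integrin belongs to, were led by different genes in different libraries. Itgb7, whose product pairs with the alpha 4 and alpha E chains (chromosome 15, 102215995 to 102231944, minus strand), stood at 29.85 and 27.66 FPKM under IL-33 alone and at 44.29 and 91.59 FPKM under Ang II (log2 change 1.12, SE 0.72, adjusted p = 0.775 by limma). It was above 20 FPKM in all libraries, with both Ang II values higher, yet the Ang II values differed by more than the nearer of them did from IL-33. Itgb1, the beta chain of the large family of matrix receptors (chromosome 8, 128685654 to 128733200, plus strand), stood at 21.36 and 22.27 FPKM against 0.51 and 0.33 FPKM (log2 change -4.01, SE 0.58, unadjusted p = 0.0262, adjusted p = 0.241 by limma). Its Ang II values were close to each other and far below IL-33.

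Itgb2, which encodes the beta chain shared by leukocyte integrins (chromosome 10, 77530252 to 77565708, plus strand), went the other way. It stood at 0.93 and 1.15 FPKM under IL-33 alone and at 78.52 and 16 FPKM under Ang II (log2 change 4.17, SE 1.50, adjusted p = 0.582 by limma). Both Ang II values were far above IL-33 but were widely apart. For comparison, Ptprc, the pan-leukocyte gene of CD45 and chosen after its values were seen, stood at 12.44 and 12.24 FPKM under IL-33 alone and at 23.14 and 28.66 FPKM under Ang II, so it too lay higher in both (log2 change 1.00, SE 0.44, adjusted p = 0.682 by limma). Selplg and Fermt3, also genes of leukocytes, lay lower in both (log2 changes -0.61 and -1.69). Ptprc therefore does not stand for leukocyte genes in general. Of 7 tested macrophage and monocyte markers 2 lay above and 4 below the IL-33 range in both Ang II libraries (24.4% and 33.5% of all genes tested), and C1qb was listed at 0 throughout. Marco had a listed 0 in each IL-33 library and reached 191.15 and 23.19 FPKM under Ang II, higher in the library where Itgb2 was higher. Fcgr1, also above, stood at 0.03 and 11.95 FPKM under Ang II, the reverse order. Adgre1 stood at 24.19 and 23.55 against 0.06 and 0.04 FPKM, and Csf1r, Mrc1, C1qa and Siglecf did not exceed 0.13 FPKM. These genes were named after their values were seen. Lyz2 stood at 1699.64 and 1667.86 against 1016.42 and 683.26 FPKM and Chil3 at 211.78 and 209.69 against 696.28 and 158 FPKM. The part of macrophage RNA in the Itgb2 values was not tested.

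Itgb3, the beta chain of the vitronectin receptor and of the platelet integrin, stood at 4.61 and 4.26 FPKM against 4.09 and 0.3 FPKM (log2 change -1.08, adjusted p = 0.775 by limma). The value rested on Ang II replicate 2; without it the log2 change was -0.09. The remaining chains Itgb4, Itgb5, Itgb6 and Itgb8 did not exceed 0.4 FPKM in any library. Of the beta chain sum, Itgb7 made up 52.3% and 50% with IL-33, 34.7% in Ang II replicate 1 and 84.3% in replicate 2. Itgb1 made up 37.4% and 40.2% with IL-33 and 0.4% and 0.304% with Ang II, and Itgb2 1.63% and 2.08% against 61.5% and 14.7%. The most abundant beta chain was thus Itgb7 in 3 libraries and Itgb2 in Ang II replicate 1.

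**Figure D2:**
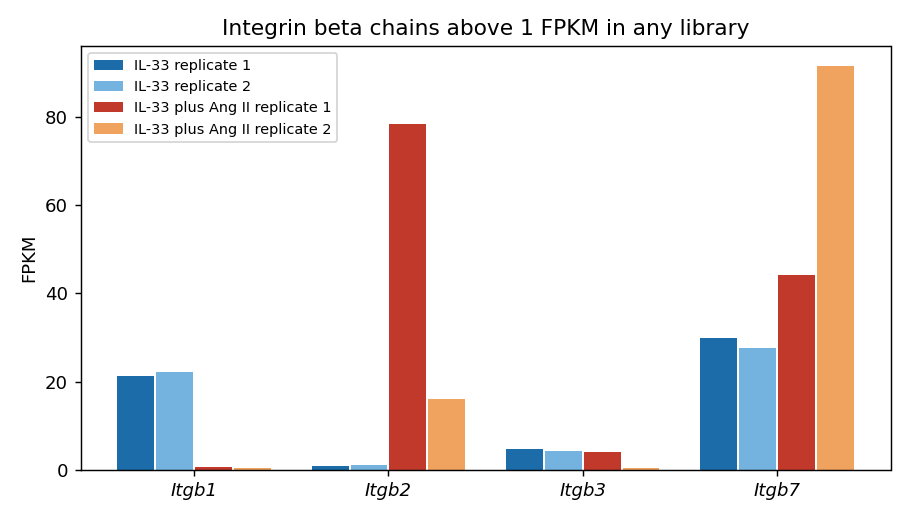
FPKM of the 4 integrin beta chain genes that exceed 1 FPKM in any library, with a bar per library. Itgb1 stands at 21.36 and 22.27 FPKM under IL-33 alone and below 1 FPKM in the Ang II libraries, while Itgb2 reaches 78.52 and 16 FPKM and Itgb7 44.29 and 91.59 FPKM under Ang II.

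The alpha chains were set beside the beta chains they pair with. Itgal, which encodes the alpha chain of LFA-1, the partner of Itgb2 and receptor of ICAM1 and ICAM2 (chromosome 7, 127296260 to 127335138, plus strand), stood at 11.4 and 11.54 FPKM under IL-33 alone and at 1.34 and 0.21 FPKM under Ang II (log2 change -2.89, SE 0.81, adjusted p = 0.472 by limma). The chains of this pair therefore differed in opposite directions, Itgal lower and Itgb2 higher in both Ang II libraries. The other partners of Itgb2, the myeloid chains Itgam, Itgax and Itgad, did not exceed 0.13 FPKM, and Itgax and Itgad were listed at 0 in all libraries.

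Itga4 encodes the chain that pairs with Itgb7 to bind the gut adhesion molecule MAdCAM and with Itgb1 to bind VCAM1 (chromosome 2, 79255426 to 79333123, plus strand). It stood at 0.03 and 0.09 FPKM under IL-33 alone and at 4.57 and 2.67 FPKM under Ang II (log2 change 2.09, SE 0.59, adjusted p = 0.473 by limma). With both Ang II values above both IL-33 values, it went the way of Itgb7 and not of Itgb1, at levels far below Itgb7 in each library. Cerkl, which overlaps its exons on the opposite strand, did not exceed 0.01 FPKM. Itgae, the second partner of Itgb7 and the CD103 chain of tissue-resident T cells, did not exceed 0.03 FPKM.

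Itga5 encodes the alpha chain of the classical fibronectin receptor, with Itgb1 as its partner (chromosome 15, 103344286 to 103366763, minus strand). It stood at 6.08 and 5.91 FPKM against 0.05 and 0.01 FPKM (log2 change -2.76, SE 0.25, unadjusted p = 0.011, adjusted p = 0.174 by limma). Both chains of this pair were thus lower in both Ang II libraries. Itgav, the alpha chain of the vitronectin receptor (chromosome 2, 83724397 to 83806916, plus strand), stood at 6.88 and 6.24 FPKM against 4.82 and 7.09 FPKM, so the groups overlapped (log2 change -0.14, SE 0.70, adjusted p = 0.931 by limma). It was the alpha chain with the steadiest level over the 4 libraries, although Gm13684, which overlaps it on the opposite strand, stood at 11.35 FPKM in Ang II replicate 2 and at most at 0.03 FPKM elsewhere. Itga3, a laminin receptor chain, was at or below 0.01 FPKM in 3 libraries and at 3.86 FPKM in Ang II replicate 2. The remaining chains Itga1, Itga2, Itga6, Itga7, Itga8 and Itga9 did not exceed 0.16 FPKM.

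Selplg, which encodes PSGL1, the ligand through which leukocytes bind P-selectin, was the most abundant of the 34 genes in every library (chromosome 5, 113818536 to 113832644, minus strand). It stood at 272.89 and 271.13 FPKM under IL-33 alone and at 168.65 and 187.02 FPKM under Ang II (log2 change -0.61, SE 0.20, adjusted p = 0.548 by limma). Both Ang II values were lower, and the Ang II pair lay close together for this gene. Among tested genes its level lay at percentile 97.5 with IL-33 and at percentiles 95.3 and 96.1 in the Ang II libraries. The selectin genes Selp and Sele, of activated endothelium and, for Selp, platelets, did not exceed 0.02 FPKM.

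**Figure D3:**
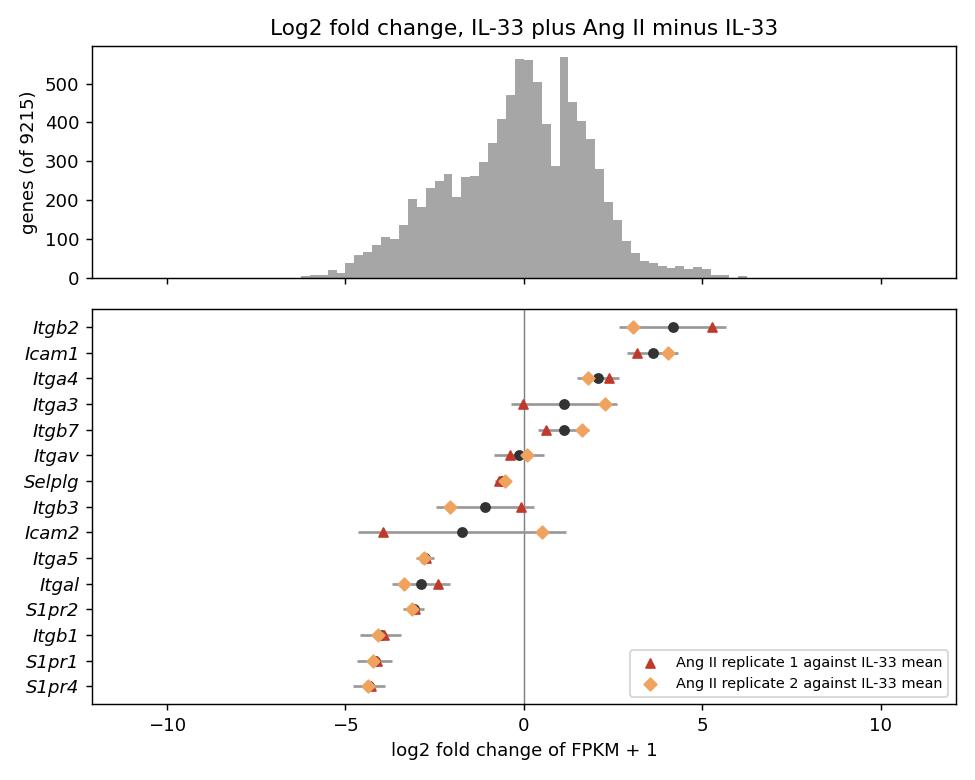
Log2 changes of FPKM + 1, IL-33 plus Ang II minus IL-33. The upper panel counts all 9215 tested genes; the lower panel gives the 15 tested genes of the set with the limma estimate (black) and its SE (grey bar), and each Ang II library against the IL-33 mean (coloured). The coloured points nearly coincide for S1pr1, S1pr2, S1pr4, Itgb1, Itga5 and Selplg and lie far apart for Icam2, Itgb2, Itga3 and Itgb3.

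The genes that make selectin ligands functional, by glycosylation and sulfation of carriers such as PSGL1, were mostly low. Of 18 in that list 8 were tested, 4 above and 1 below the IL-33 range in both Ang II libraries (24.4% and 33.5% of all genes tested), at a median log2 change of 0.51 and 0 past the adjusted threshold. St3gal4 and Gcnt1, counted above, passed the minimum only through Ang II replicate 2, and Glg1, counted below, only through IL-33. They were named after their values were seen. The fucosyltransferase genes Fut4 and Fut7, needed for selectin binding and named after their values were seen, did not exceed 0.04 FPKM. Cd44, which encodes a hyaluronan receptor that also carries selectin ligands, stood at 22.27 and 23.64 FPKM against 50.95 and 41.63 FPKM, and B4galt1, a galactosyltransferase gene, at 14.03 and 14.61 against 39.44 and 27.27 FPKM. Both were higher in both Ang II libraries (adjusted p = 0.601 and 0.677 by limma). Tpst2, the gene of an enzyme that sulfates PSGL1, stood at 41.16 and 39.4 FPKM against 116 and 6.71 FPKM, and C1galt1c1, a chaperone gene of O-glycan synthesis, at 36.51 and 37.24 against 81.74 and 17.24 FPKM. For these the IL-33 values lay between those of the Ang II libraries.

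Genes of the machinery that activates integrins from inside the cell ranged from abundant to barely detected, and 1 was listed at 0 in all 4 libraries. Passing the minimum level does not mean that a gene was present in every library. Of 33 genes 23 were tested, 8 above and 11 below the IL-33 range in both Ang II libraries (24.4% and 33.5% of all genes tested), at a median log2 change of -0.26 and 0 past the adjusted threshold. Among those above, Crkl, Pxn and Dock2 passed the minimum only through 1 Ang II library. Among those below, Parvg and Fyb passed it only through IL-33. These genes were named after their values were seen, and the counts are no support for a shift. Rap1b, the gene of a small GTPase that triggers integrin activation, stood at 270.12 and 271.85 FPKM against 385.48 and 311.95 FPKM (log2 change 0.35, SE 0.25, adjusted p = 0.775 by limma). Fermt3, which encodes kindlin-3, the leukocyte protein that binds beta chain tails, stood at 135.48 and 139.42 against 52.41 and 33.56 FPKM (log2 change -1.69, SE 0.48, adjusted p = 0.477 by limma). Rap1b thus lay slightly higher and Fermt3 lower in both Ang II libraries. Cytip, which encodes a partner of cytohesin 1 that weakens LFA-1 adhesion, stood at 29.75 and 30.17 against 98.72 and 72.62 FPKM. Skap1, an adaptor gene, stood at 61.51 and 61.35 against 46.32 and 56.05 FPKM, a small difference by comparison.

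Of 16 other adhesion receptors and integrin chains 8 were tested, 0 above and 3 below the IL-33 range in both Ang II libraries (24.4% and 33.5% of all genes tested), at a median log2 change of -1.87 and 0 past the adjusted threshold. Cd48, the ligand of CD2 in mice, was the most abundant of them with IL-33, at 75.7 and 73.09 FPKM against 3.49 and 29.5 FPKM. Cd96, which encodes a receptor of nectin-like proteins, stood at 49.57 and 47.94 against 121.19 and 0.07 FPKM, and Cd2 at 16.54 and 17.91 against 29.28 and 0.16 FPKM. Cd226, a receptor gene related to Cd96, stood at 5.11 and 5.44 against 0.06 and 15.83 FPKM. For Cd96, Cd2 and Cd226 the Ang II libraries lay on either side of IL-33.

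Among 16 genes of extracellular integrin ligands 5 were tested, 1 above and 1 below the IL-33 range in both Ang II libraries (24.4% and 33.5% of all genes tested), at a median log2 change of -0.11 and 0 past the adjusted threshold. Spp1, the gene of osteopontin, which binds integrins with the alpha v chain, stood at 0.28 and 0.51 FPKM against 129.84 and 148.65 FPKM (log2 change 6.65, SE 0.36, adjusted p = 0.174 by limma). Tgfb1, whose latent product is bound and activated by alpha v integrins, stood at 7.23 and 8.06 FPKM against a listed 0 and 0.14 FPKM. These ligands of the same alpha chain therefore lay at opposite ends, while Itgav itself overlapped between groups. Mfge8, the gene of a bridging protein for alpha v integrins, stood at 7.68 and 8.84 against 0 and 9.41 FPKM, and Thbs1, the thrombospondin 1 gene, at 0.47 and 0.5 against 6.36 and 0.41 FPKM, so each was set apart by 1 Ang II library.

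Of the 34 genes 9 stood at 5 to 30 FPKM under IL-33 alone, and 5 of these (Itgb1, Itga5, S1pr1, S1pr2 and S1pr4) were below 1 FPKM in both Ang II libraries, where the share among all genes of that level is 21.3%. Itgal and Icam2 were below 1 FPKM in a single Ang II library, and Itgb7 and Itgav in neither. Over all genes of that level, 43.2% stood below 1 FPKM in Ang II replicate 1 and 29.8% in replicate 2. The bounds of these counts were set after the values were seen. Of the 10 tested genes with at least 1 FPKM in an Ang II library, 6 (Itgb2, Itgb3, Itgb7, Itgal, Itga3 and Icam2) differed by more than 2-fold between the Ang II libraries. The share over all genes tested was not computed, so this count shows nothing particular to the set. The 12 tested genes with at least 1 FPKM in both IL-33 libraries differed by 1.01 to 1.3-fold between those.

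**Figure D4:**
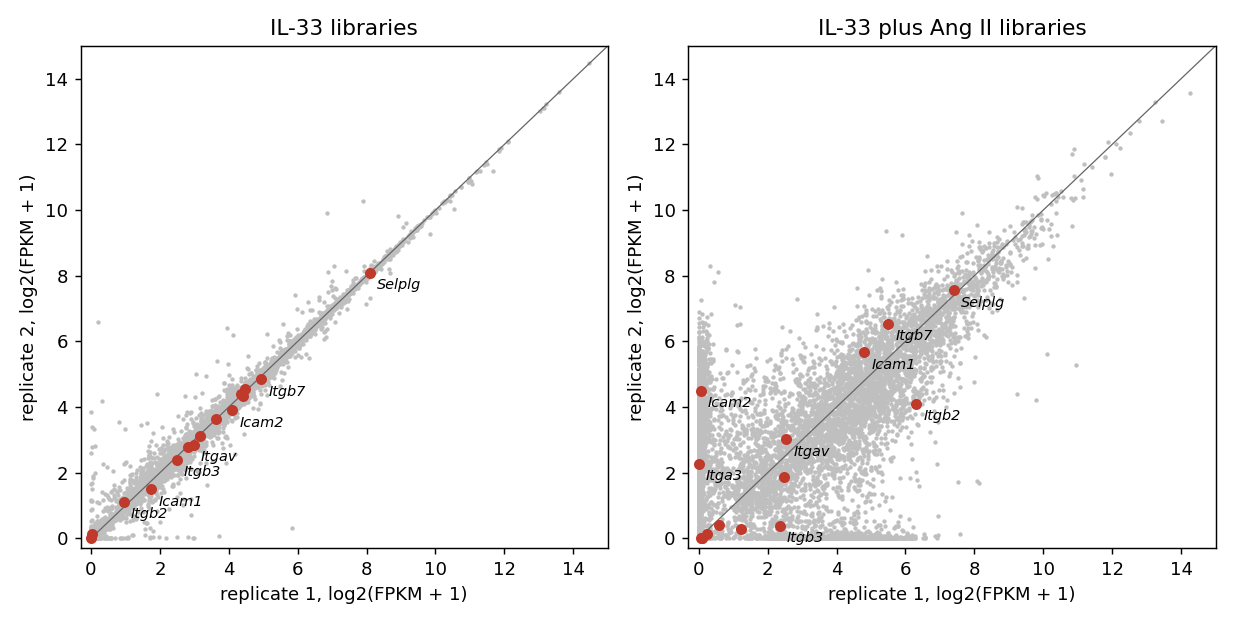
Replicate 2 against replicate 1 as log2(FPKM + 1), for the IL-33 libraries (left) and the IL-33 plus Ang II libraries (right). Grey points are the 9215 tested genes, red points the 15 tested genes of the set, and the line marks equal values; the IL-33 points follow the line, and in the Ang II panel Icam2, Itga3, Itgb2 and Itgb3 lie far from it.

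The 19 genes that were not tested had no value above 0.4 FPKM, and 6 of them (Itgb6, Itgax, Itgad, Itga1, Itga9 and Sele) were listed at 0 in all 4 libraries. A listed 0 in a file without counts need not mean absence.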

How the data were processed

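Purified lung ILC2s were sequenced after low-input cDNA synthesis and PCR amplification, per the labels' protocols, which name no molecular identifiers; amplification from 500 cells can lose or multiply transcripts between libraries. The deposited values are FPKM per gene with 2 decimals, computed by the authors per the file headers. The submitters' processing notes name mm10, HISAT, StringTie and edgeR, with versions, roles, strand setting and annotation not given in the sources used here. Because no file holds counts, no count model was run, and whether low values are whole multiples of a single fragment was not tested. Both Ang II columns come from 1 table and were matched to samples by name.

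The test covered 9215 of 55401 gene models, those averaging 1 FPKM or more across the IL-33 mean and the Ang II libraries, and used limma 3.58.1 (R 4.3.3; lmFit, eBayes with trend) on log2(FPKM + 1), two-sided, with Benjamini-Hochberg adjustment over all of them and a threshold of 0.05. The IL-33 libraries were averaged as 1 sample after they had been compared with counting noise at the depth implied by genes listed at 0 in 1 of them, so the fit has 1 residual degree of freedom, and the spread of the Ang II libraries stands for that of IL-33, which is an assumption. P-values measure the spread between these libraries, which may be technical. Fold changes of FPKM + 1 understate low genes. Positions are from GENCODE M21 (GRCm38, matched by identifier for 55141 gene models) and promoters from RefSeq.

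The members and gene lists were chosen with earlier results of these data known. By the naming rule all members are accounted for, members with at least 5 FPKM in a library are given in every library, other members by range, and each pathway list by its 4 most abundant genes. Marker lists are given by their sums, their 2 most abundant genes or those at 0, or not at all. Exceptions are stated. Alternatives were another pseudocount, other minimum levels, upper quartile scaling, no trend, IL-33 counted as 2 samples with and without a replicate block, and leaving out each library. The values of 1 gene of a pathway list are not reported here.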

Additional observations from a re-analysis of the deposited data

How the results depend on the processing

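Over all genes, 0 were higher and 0 lower past limma's adjusted threshold, and 257 and 996 at an unadjusted p under 0.05. With both IL-33 libraries counted as separate samples 457 were higher and 1090 lower past it (984 and 1598 unadjusted), and 7 of the 15 tested genes of the set then passed: Icam1, Itga5, Itgal, Itgb1, S1pr1, S1pr2 and S1pr4, with adjusted p from 0.00602 to 0.0406. That setting treats the IL-33 pair, whose spread was near counting noise at a depth estimated from that same pair, as independent samples. With the replicate number as a block in addition, 0 genes passed in either direction and 618 were higher at an unadjusted p under 0.05; the labels give no sign that equal numbers pair samples, and the deviations of same-numbered libraries correlated at -0.019 across genes. At an unadjusted p under 0.05, 2341 genes were lower with no minimum level and 330 with a minimum mean of 5 FPKM; both settings test other numbers of genes.

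Of the set, 4 genes lay above and 8 below the IL-33 range in both Ang II libraries (24.4% and 33.5% of all genes tested). Leaving out 1 library at a time gave 4 to 7 above and 8 to 10 below. With 1 Ang II library left and nearly equal IL-33 values, a gene can hardly fall inside the IL-33 range. These counts therefore say little, and the shares over all genes in those settings were not computed. The log2 change of Icam2 ran from -3.95 without Ang II replicate 2 to 0.50 without replicate 1, that of Itgav from -0.38 to 0.10 likewise, and that of Itga3 from -0.01 to 2.27. Leaving out an Ang II library leaves no residual degrees of freedom, so these are values with no test. The tested genes of the set kept their direction under every other alternative. The minimum of 5 FPKM kept 9 of the 15. The median log2 change of all genes was 0.01 under upper quartile scaling, -0.06 with a pseudocount of 0.1 and -0.12 with a minimum mean of 5 FPKM, against 0.00 as reported. The depth behind the values is unknown, so how far it limits the low ones cannot be given.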
